A study of Mus musculus with 48 samples.

Results

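The 4 libraries compared here, of 48 in the series, measure open chromatin in transitional CD8 T cells recovered from tumours of aged mice: 2 from cells given a guide RNA against Zfp219 and 2 from cells given the control that the labels call OTC. They were chosen by their titles, which give the host (A, read as aged), the sorted state (Ttran) and the perturbation, and all 53868 peaks of the deposited table were tested. Donor cells of both groups were naive-like splenic CD8 T cells of OT-1 mice, whose transgenic receptor recognises an ovalbumin peptide; they expressed Cas9 and carried the CD45.1 allele. They were transduced with a lentiviral vector carrying a single guide RNA and an ametrine fluorescent reporter, and sorted for the reporter. They were moved into aged hosts 1 day before the mice received B16-OVA, a mouse melanoma line that makes ovalbumin. Cells were sorted from the tumours 15 days after inoculation as Slamf6+ Tim-3+, the gate called Ttran and described as effector-like. The gene knockout is labelled Zfp219KO in 1 group and OTC control in the other; what OTC stands for, the age of the hosts, the guide sequences and the editing rate were not given in the sources used here. Each group is 2 pools of sorted cells from several mice. The tests use a spread between pools that was estimated over all 48 libraries of the series.

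Chronically stimulated CD8 T cells in tumours pass from a stem-like progenitor state, which keeps Slamf6, through a transitional state with both markers, to a terminally exhausted state with only Tim-3, encoded by Havcr2. The transitional cells are known for effector activity and for responding to checkpoint blockade. Zfp219 is a nuclear protein with C2H2 zinc fingers, a fold that binds DNA. ATAC-seq uses the Tn5 transposase to cut and tag accessible DNA, so more reads in a peak mean that the site was cut more often in the pooled cells.

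Reads in peaks numbered 12793436 and 16034483 in the Zfp219 libraries and 9060635 and 8547780 in the OTC libraries, within the range of 5638413 to 29942755 over the series. A level below is the deposited normalized read count, in which a library's reads are divided by a size factor; 1 read is worth 1.02 and 0.816 in the Zfp219 libraries and 1.5 and 1.59 in the OTC libraries. A difference is the log2 fold change of Zfp219 over OTC after 1 is added to each value, so that weak peaks appear to change less than they did. A peak was called at a limma adjusted p under 0.05, over all peaks. A peak carries the name of the protein-coding gene whose body it overlaps, or of the nearest within 100 kb; 51109 peaks had such a gene and 34590 overlapped its body. A start window is the stretch from 250 bases before to 50 after a RefSeq transcription start, and 10251 peaks overlapped at least 1. Levels are given with both Zfp219 libraries first, and brackets hold the difference, its SE and its limma adjusted p. The gene a distal peak acts on was not measured.

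The sorted cells were checked against markers. All 8 CD8 T cell genes examined, including Cd3e, Cd8a and Cd8b1, had a peak, and their strongest peaks summed to 8178 and 8506 in the Zfp219 libraries and to 8813 and 9111 in the OTC libraries. Of the B cell genes, Cd79a, Cd79b and Ms4a1 had no assigned peak, nor had Csf1r, Adgre1 and Lyz2 of 8 myeloid genes, Tyr, Dct and Tyrp1 of 7 melanoma genes, or Foxp3 and Col1a2. The strongest peaks of the 4 natural killer genes summed to 1781 to 1961 in the Zfp219 libraries and 1498 to 1570 in the OTC libraries. Of their 14 peaks 4 were called higher (28.6%, against 5.92% of all peaks) and 1 lower (7.14%, against 8.29%). The strongest Klrb1c peak held 771 and 853 against 539 and 588 (difference 0.53, limma adjusted p = 6.57e-05). Tyrobp held 802 and 812 against 572 and 687 (0.36, limma adjusted p = 0.0102). Klra8 went the other way, with 201 and 284 against 379 and 292 (-0.48, limma adjusted p = 0.0157). Ncr1, the most specific of them, was at 6.12 and 12.2 against 9.03 and 3.19, a few reads in each library, and was not called. The B cell sums were 321 to 323 against 259 to 279 and the CD4 T cell sums 1272 to 1451 against 1415 to 1518. The melanoma sums were 1970 to 2062 against 2375 to 2404, the myeloid sums 1503 to 1536 against 1611 to 1848, and the stromal or endothelial sums 1602 to 1665 against 1516 to 1551. The melanoma and myeloid sums were thus lower and the natural killer, B cell and stromal sums higher with the Zfp219 guide; their part in the results below was not tested. In pooled cells, fewer cells with an open site and a site less open in each cell cannot be told apart.

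The targeted gene and the gate came first. Zfp219 had 4 peaks, and the one at its start (chr14:52019226-52020740, which also overlaps the body of Tmem253) held 1213 and 1265 in the Zfp219 libraries against 1018 and 1025 in the OTC libraries (log2 fold change 0.28, SE 0.09, limma adjusted p = 0.0178). Both Zfp219 libraries were higher than both OTC libraries there. The other 3 peaks of the gene were not called, with differences of 0.26 to 0.44. A small edit can leave a peak in place, so these levels do not check the knockout. Leaving out any 1 of the 4 libraries ended the call at the start, with adjusted p of 0.056 to 0.148. At the sorting genes, the strongest Slamf6 peak (chr1:171915612-171916427, 1031 bases outside the gene) held 318 and 309 in the Zfp219 libraries against 603 and 485 in the OTC libraries (log2 fold change -0.78, SE 0.15, limma adjusted p = 6.43e-05). The strongest Havcr2 peak, at its start (chr11:46452770-46455391), held 1142 and 1104 against 1256 and 1304 and was not called (-0.19, SE 0.08, adjusted p = 0.121). Of the 11 peaks of these 2 genes 3 were lower (27.3%, against 8.29% of all peaks) and none higher. Both groups were sorted with the same gate for the 2 proteins.

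Chromatin accessibility differed widely between the groups. With the Zfp219 guide 3188 peaks were higher (5.92% of all peaks) and 4468 lower (8.29%), together 14.2%. Of these, 865 rose and 1201 fell at least 2-fold. The median size of a called difference was 0.65, and the median over all peaks was 0.00. The 2 pools of each group stayed apart at 3140 of the peaks called higher and 4456 of those called lower; over all peaks the pools did not overlap at 53.2%. Called peaks touched 2578 genes with a higher peak and 2606 with a lower one, 430 of them in both lists. Without the first Zfp219 library 4188 peaks were called and without the second 4156, where the lone library was assumed to vary like the other groups. All libraries thinned to the same total gave 7861 calls, of which 6934 were among the 7656 with the same direction.

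The direction differed with the kind of site. In start windows 1180 peaks rose and 531 fell, with a median difference of 0.10 over the 10251. Outside them 2008 rose and 3937 fell, with a median of -0.04 over 43617. Peaks with no gene within 100 kb stood lowest: 347 of 2689 fell and 84 rose, with a median of -0.22. The most open distal sites fell often. Among the strongest 10% of peaks by mean level over the 48 libraries, 37.2% of the 2426 outside start windows fell and 4.16% rose. That excess of falls held in every setting tried; the smallest share lower was 22.5%, against 7.09% higher, under quantile normalization. In start windows of the same strength 12.8% fell and 9.08% rose, and this order turned under quantile normalization (3.61% against 17.7%) and under cyclic loess normalization (7.16% against 13.5%). The share of all reads in start windows was 42.6% and 43.1% in the Zfp219 libraries against 40.0% and 40.2% in the OTC libraries. The share in the strongest 10% of peaks was 44.8% and 44.9% against 46.6% and 46.7%. These shares move with the groups, and their part in the calls was not tested. In aged Ttran cells with a guide against another gene, Dusp5, the start-window share was 40.02% and 41.2%. The Dusp5 share in the strongest 10% was 44.78% and 45.05%, near Zfp219. The OTC shares there were the highest of the 48 libraries. Of the 2426 peaks, 407 fell (16.8%) and 26 rose with Dusp5 against OTC. With Zfp219 against Dusp5 270 fell (11.1%) and 68 rose, so fewer fell than against OTC.

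**Figure D1:**
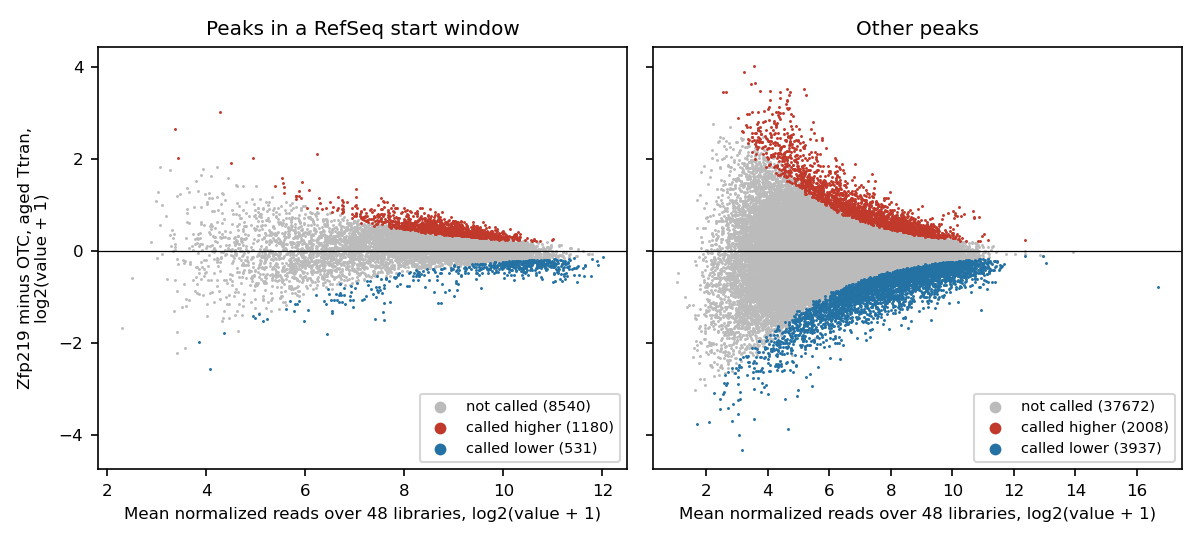
Each point is a peak. The x axis is its mean normalized read count over 48 libraries as log2(value + 1), and the y axis the difference of aged Ttran Zfp219 and OTC libraries on that scale. Of peaks in start windows (left) 1180 were called higher (red) and 531 lower (blue); of other peaks (right) 2008 were higher and 3937 lower, the lower ones reaching the strongest peaks.

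Among start windows, the letters of the sequence differed between rising and falling promoters. The 9 motifs searched on both strands in the 300-base windows were chosen after the peak values were seen, and so were the comparisons that follow. CCAAT is the box bound by NF-Y, a trimeric activator of many housekeeping promoters. It was present in 61.8% of the windows of the 531 lower peaks, 31.8% of those of the 1180 higher peaks, 40.7% of those not called and 37.4% of all 32851 windows in the table. CCGGAAG, the core that Ets-family factors bind, had the opposite order, at 12.6%, 23.9%, 18.9% and 8.86%. An interferon-regulatory-factor element was in 1.88%, 5.25%, 3.38% and 3.44%. The other 6 are given for lower and higher peaks. The Sp-family box GGGCGG was at 65.9% and 70.6%, and the AP-1 site TGANTCA at 8.66% and 6.02%. The cyclic-AMP element TGACGTCA was at 2.64% and 4.75%, and the Runx site TGTGGT at 18.5% and 14.2%. An NF-kB core was at 30.5% and 30.3%, and a run of 6 C at 25.2% and 28.6%. Matches of different motifs can overlap, and a match is a description of letters.

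Promoters with the clearest change are printed as examples. For each direction, the start-window peaks of smallest adjusted p with 1 RefSeq window, its gene's own, and no overlap between the groups are given; the 250 bases before the start are printed 5′ to 3′ on the gene's strand, from RefSeq (GRCm38.p6), with CCAAT or its reverse complement ATTGG in capitals. Peaks of 1 chromosome were passed over in this choice. The first 5 fell with the Zfp219 guide and the last 3 rose.
Khsrp (chr17:57031508-57031757, minus strand): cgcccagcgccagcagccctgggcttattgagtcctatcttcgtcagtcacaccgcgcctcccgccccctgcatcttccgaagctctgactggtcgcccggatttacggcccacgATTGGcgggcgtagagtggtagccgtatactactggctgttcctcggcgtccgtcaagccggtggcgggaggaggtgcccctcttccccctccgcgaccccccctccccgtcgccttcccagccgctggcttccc
Osbp (chr19:11965594-11965843, plus strand): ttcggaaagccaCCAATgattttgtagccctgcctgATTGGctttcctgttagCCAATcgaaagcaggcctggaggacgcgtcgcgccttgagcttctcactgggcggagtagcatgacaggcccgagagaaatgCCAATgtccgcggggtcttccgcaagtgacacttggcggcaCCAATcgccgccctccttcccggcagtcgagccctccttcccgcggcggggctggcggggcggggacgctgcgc
Evi5l (chr8:4166317-4166566, plus strand): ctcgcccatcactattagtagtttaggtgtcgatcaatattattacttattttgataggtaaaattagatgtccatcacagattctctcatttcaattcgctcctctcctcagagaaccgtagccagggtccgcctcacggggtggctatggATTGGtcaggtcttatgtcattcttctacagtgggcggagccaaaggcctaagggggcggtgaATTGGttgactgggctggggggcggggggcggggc
Sp1 (chr15:102406066-102406315, plus strand): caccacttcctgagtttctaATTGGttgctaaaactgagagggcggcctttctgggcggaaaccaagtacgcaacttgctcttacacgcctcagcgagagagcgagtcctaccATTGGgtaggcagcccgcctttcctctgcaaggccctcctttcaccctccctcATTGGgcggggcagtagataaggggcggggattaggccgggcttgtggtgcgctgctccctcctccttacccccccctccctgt
Slc25a42 (chr8:70212282-70212531, minus strand): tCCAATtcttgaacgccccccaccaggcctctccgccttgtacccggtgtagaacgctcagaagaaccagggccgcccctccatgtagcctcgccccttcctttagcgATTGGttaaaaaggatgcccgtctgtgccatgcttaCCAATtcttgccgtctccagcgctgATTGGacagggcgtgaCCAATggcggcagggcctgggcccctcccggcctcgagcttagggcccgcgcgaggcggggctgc
Rps3a1 (chr3:86142669-86142918, minus strand): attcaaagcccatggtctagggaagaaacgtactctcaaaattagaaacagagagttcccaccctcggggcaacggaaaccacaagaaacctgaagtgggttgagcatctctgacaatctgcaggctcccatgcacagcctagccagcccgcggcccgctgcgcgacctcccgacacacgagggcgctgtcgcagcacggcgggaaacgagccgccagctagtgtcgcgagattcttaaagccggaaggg
Tmem221 (chr8:71558872-71559121, minus strand): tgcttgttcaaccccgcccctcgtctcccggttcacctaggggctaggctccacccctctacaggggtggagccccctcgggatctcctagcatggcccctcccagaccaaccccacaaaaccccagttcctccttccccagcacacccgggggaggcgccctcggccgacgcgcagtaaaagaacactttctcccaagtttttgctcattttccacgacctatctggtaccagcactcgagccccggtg
Zfp692 (chr11:58306819-58307068, plus strand): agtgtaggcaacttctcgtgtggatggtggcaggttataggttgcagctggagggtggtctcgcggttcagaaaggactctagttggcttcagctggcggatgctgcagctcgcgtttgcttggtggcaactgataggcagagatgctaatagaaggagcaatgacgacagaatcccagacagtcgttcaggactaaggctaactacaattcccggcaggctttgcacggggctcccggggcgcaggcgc
Each of the 5 falling promoters held 1 to 5 boxes and none of the 3 rising ones held any. They were picked by the same values as above, so this split is an illustration and not a further test. Over all start-window peaks 61.8% of the lower and 31.8% of the higher ones held a box.

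The Osbp promoter, which serves an oxysterol-binding protein of lipid transport, has 5 boxes. Its peak held 1723 and 1728 in the Zfp219 libraries against 2777 and 2675 in the OTC libraries (log2 fold change -0.66, SE 0.06, limma adjusted p = 1.13e-14). Khsrp, an RNA-binding regulator of splicing and decay, has 1 box, and its peak held 2520.3 and 2394 against 4129 and 3807 (-0.69, SE 0.06, adjusted p = 9.16e-16). At Sp1, a zinc-finger factor of GC-rich promoters with 3 boxes, the values were 2989 and 3268 against 4711 and 4515 (-0.56, SE 0.05, adjusted p = 4.8e-14). Both OTC libraries were above both Zfp219 libraries at all 3, which the rule for printing required. Slc25a42, a mitochondrial carrier with 5 boxes, fell by 0.56 on the log2 scale and Evi5l, with 2, by 0.69. Osbp also fell in Dusp5 against OTC aged Ttran cells, which share the OTC libraries (-0.48, SE 0.06, limma adjusted p = 2.2e-08). In Zfp219 against Dusp5 Osbp was not called (-0.17, SE 0.06, limma adjusted p = 0.0745). Khsrp, Evi5l, Sp1 and Slc25a42 were still called lower there, at -0.26, -0.30, -0.24 and -0.23, smaller differences than against OTC. Among the rising promoters, Rps3a1, a protein of the small ribosomal subunit, held 843 and 927 against 559.6 and 582 (0.63, SE 0.10, adjusted p = 4.69e-07). Tmem221 rose from 257 and 348 to 558 and 519.6, a difference of 0.85, and Zfp692 by 0.80. These 3 are weaker peaks than the 5 that fell.

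Over all start windows the shares moved with the number of boxes. With no box 13.3% of 6068 peaks rose and 3.35% fell. With 1 box these shares were 10.8% and 5.30% of 2548, with 2 boxes 7.28% and 7.47% of 1058, and with 3 or more 4.16% and 19.8% of 577. The median difference was 0.14, 0.09, 0.02 and -0.06 in that order. Windows with more boxes lie in stronger peaks, so the order was read again within the strongest 10%: 8.29%, 11.9%, 15.6% and 28.0% fell. Strength was not equal even there, with median levels of 912, 953, 1003 and 1097. In the second strongest 10% few fell, at 1.51%, 1.94%, 1.87% and 4.6%, the last share from 87 peaks. The share that rose there went down with the boxes, at 20.5%, 13.5%, 8.58% and 8.05%. The median differences over all start windows fell with the boxes in every setting tried, with 0.16, 0.12, 0.07 and 0.01 under quantile normalization. But in the strongest 10% the class of 3 or more boxes then had 36 falls and 33 rises, against 106 and 11.

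The same offset can be read in each library alone, as the median log2 level of strong promoters with 2 or more boxes (803 peaks) minus that of strong promoters with none (1400). It was 0.10 and 0.12 in the Zfp219 Ttran libraries and 0.22 and 0.23 in the OTC Ttran libraries. With 2 against 2 libraries an exact two-sided permutation test cannot go below p = 0.333. In aged Tterm the Zfp219 libraries stood at 0.095 in both libraries against 0.15 and 0.18 in OTC, and in aged Ttad at 0.11 and 0.11 against 0.18 and 0.17. In Ttran of young hosts the 3 Zfp219 libraries were at 0.16 to 0.17 and the 3 OTC libraries at 0.23 to 0.26. Progenitor cells went the other way, with 0.17 and 0.19 for Zfp219 and 0.12 and 0.15 for OTC in aged hosts; in young hosts the 2 groups overlapped. Terminal cells of young hosts also went the other way, at 0.15 to 0.17 against 0.13 to 0.14, so the offset was lower with the guide in 4 of the 7 comparisons. The aged Dusp5 Ttran libraries, whose cells carried a guide against another gene, lay between the groups at 0.17 and 0.21.

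**Figure D2:**
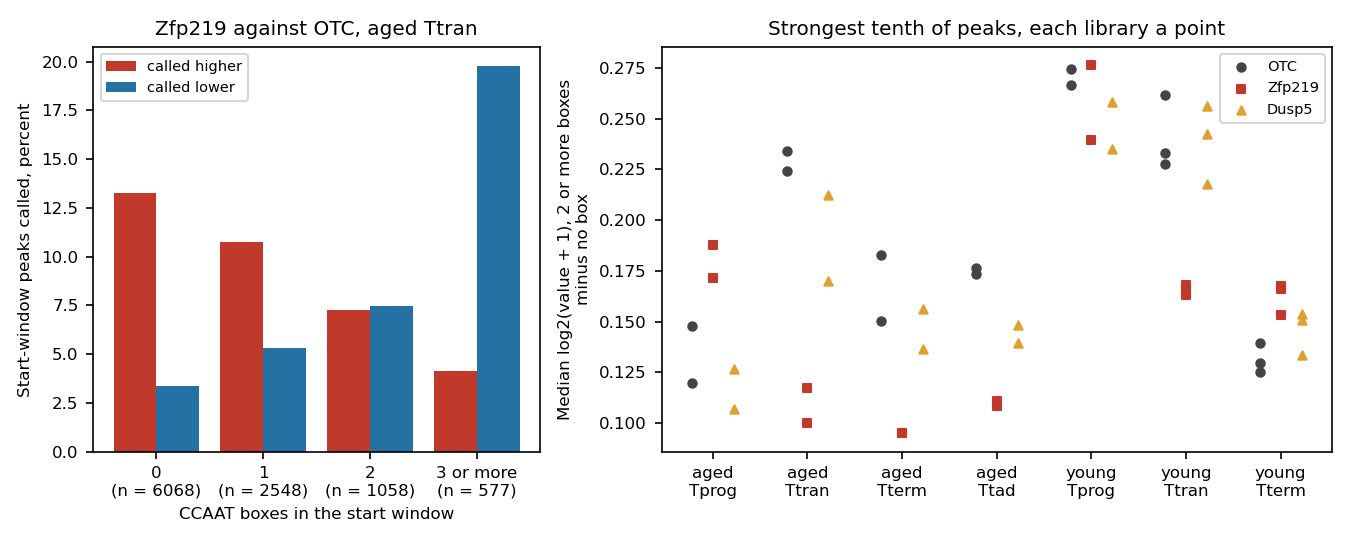
Left, the share of start-window peaks called higher (red) or lower (blue) with the Zfp219 guide in aged Ttran, by number of CCAAT boxes; the share lower goes from 3.35% with none to 19.8% with 3 or more. Right, for each library, the median log2(value + 1) of strong promoters with 2 or more boxes minus that of those with none, by host, state and perturbation; in aged Ttran the Zfp219 libraries (red squares) lie at 0.10 and 0.12 and the OTC libraries (dark circles) at 0.22 and 0.23.

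Some genes held many called peaks, though the calls were spread over 2578 genes with a higher and 2606 with a lower peak. Of all peaks 8.29% were lower and 5.92% higher. Among the genes with most lower peaks were Runx2, Itpr1, Etv6, Nfkb1 and Cmip. Runx2, a Runt-family factor of T cells and bone, had 45 peaks, of which 21 fell and 1 rose. The strongest of them (chr17:44568812-44570033, inside the gene) held 1385 and 1409 in the Zfp219 libraries against 2389 and 2289 in the OTC libraries (log2 fold change -0.74, SE 0.07, limma adjusted p = 5.2e-14). The single rise was a peak inside the Runx2 body that is the start of Supt3 (chr17:44776586-44777889), with 886 and 897 against 644 and 739.7 (0.37, SE 0.10, adjusted p = 0.00722; named after its values were seen). Nfkb1, which encodes the NF-kB subunit p105/p50, had 14 lower peaks of 23 and 1 higher. The strongest of the lower ones (chr3:135665310-135666991) held 1020.4 and 967 against 1361 and 1240.3 (-0.39, SE 0.08, adjusted p = 0.000493), and a weaker internal one (chr3:135628712-135630342), named after its values were seen, 171 and 175 against 406 and 437 (-1.28, SE 0.20, adjusted p = 8.14e-07). The groups did not overlap at any of its called peaks, as at nearly all called peaks and at 53.2% of all peaks.

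Etv6, an Ets-family repressor, had 17 of 29 lower with a median of -0.71, and Cmip, an adaptor of T cell receptor signalling, 13 of 24 with a median of -0.68. Itpr1, the receptor that releases calcium from the endoplasmic reticulum, had 18 of 44 lower with a median of -0.27. At none of these 3 genes was a peak called higher. The strongest called Cmip peak (chr8:117287678-117289638) held 1542 and 1519.7 against 2413 and 2473 (-0.67, SE 0.07, adjusted p = 5.17e-12), with the groups well apart. Leaving out each library in turn left 10 to 16 lower peaks at each of the 5 genes.

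The 6 genes with most higher peaks had fewer. Prkcq, the kinase PKC-theta below the T cell receptor, had 8 higher of 30 and none lower, with a median of 0.38. The peak of largest rise (chr2:11355603-11356022, 54377 bases outside the gene) was weak, at 83.7 and 75.9 against 39.1 and 9.57 (1.97, SE 0.39, adjusted p = 9.38e-05), and without the second OTC library it was not called (adjusted p = 0.136). The strongest called peak, within Prkcq, held 710.2 and 592 against 539 and 467 (0.37, SE 0.11, adjusted p = 0.00912), and it was not called without the second OTC or the first Zfp219 library (adjusted p = 0.185 and 0.281). Leaving out 1 library left 3 to 7 higher peaks. Slc22a5, a carnitine transporter, had 6 of 9 higher (2 to 4 with a library left out), Jazf1 6 of 21 (3 to 4) and Snx29 6 of 21 (1 to 3), the last 2 with 1 lower peak each. Trerf1 had 5 of 20 (3 to 5).

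A row of sites on chromosome 6 is named after the predicted gene Gm40363; there 7 of 8 peaks rose by 0.71 to 0.86. The strongest (chr6:47752594-47754120) held 2044 and 2049 in the Zfp219 libraries against 1274 and 1181 in the OTC libraries (log2 fold change 0.74, SE 0.07, limma adjusted p = 5.89e-15). Most of the peaks lie at nearly even spacing and have similar levels, and whether they are near-identical copies, between which reads cannot be placed, was not tested, so their number is uncertain. Leaving out any 1 of the 4 libraries left 7 called. Of the 8 peaks 7 were also called higher in aged Tterm, in aged Ttad and in young Ttran, and none was called in aged Tprog, where the median was 0.00.

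**Figure D3:**
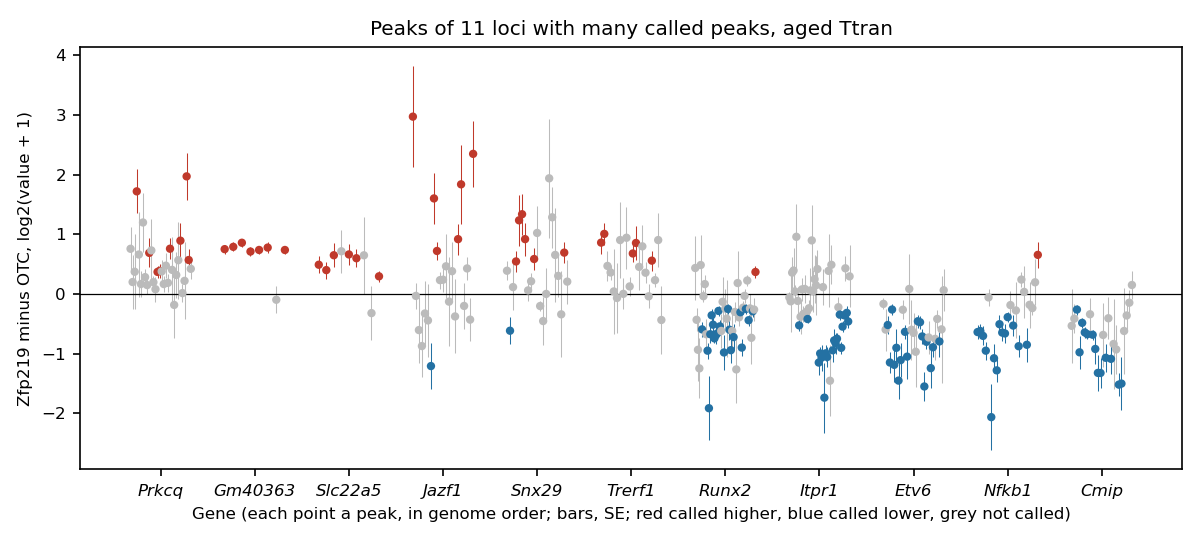
Each point is a peak of a named gene, in genome order within the gene, with its difference between aged Ttran Zfp219 and OTC libraries on the log2(value + 1) scale and its SE as a bar. The 6 genes on the left have the most peaks called higher (red) and the 5 on the right many called lower (blue); Runx2 has 21 blue points and 1 red, and the 7 red points of Gm40363 lie between 0.71 and 0.86.

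Among genes of T cell activation factors, 25.3% of NFAT and NF-kB peaks and 23.8% of AP-1 peaks were lower, against 8.29% of all peaks. NFAT factors enter the nucleus on calcium signals and NF-kB factors when their inhibitor is degraded; AP-1 factors, dimers of the Jun, Fos, Batf and Maf kind, bind beside them. Of 150 peaks at 14 NFAT and NF-kB genes 38 fell and 8 rose, with a median of -0.23 against 0.00 for all peaks (25 to 29 fell and 1 to 3 rose with 1 library left out); Nfkb1, named above, holds 14 of the falls. Traf1, an NF-kB target and adaptor of TNF receptors, held 603 and 479.6 against 972 and 993 at its clearest peak (-0.87, SE 0.11, adjusted p = 3.93e-09). Nfat5, the osmotic-stress member, held 1121 and 1035 against 1525 and 1827 at chr8:107290889-107292012 (-0.63, SE 0.09, adjusted p = 4.09e-08). In each the pools of the 2 groups did not overlap, as at nearly all called peaks. The Rela start went the other way, at 905 and 882 against 696 and 716 (0.34, SE 0.09, adjusted p = 0.0067), but without the first OTC or the first Zfp219 library it was not called.

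Of 105 peaks at 16 AP-1 and related bZIP genes 25 fell and 3 rose, with a median of -0.19 (17 to 20 fell and 1 to 3 rose with 1 library left out). The clearest was 12159 bases from Jun (chr4:95035093-95036877), at 236 and 245 in the Zfp219 libraries against 660.4 and 458 in the OTC libraries (log2 fold change -1.19, SE 0.15, limma adjusted p = 2.24e-09). Batf3, a partner of Jun, held 299 and 295 against 615 and 627 at a peak 407 bases outside the gene (-1.06, SE 0.15, adjusted p = 2.19e-08). The Zfp219 mean was 0.430 of the OTC mean at Jun and 0.479 at Batf3. At Fos 1 peak rose, with 978 and 1115 against 821 and 858 (0.31, SE 0.10, adjusted p = 0.0214), and was not called without either OTC library or without the second Zfp219 library (adjusted p = 0.055 to 0.303).

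The Runx, Ets and Ikaros factors set T cell enhancers during development and differentiation. Of their 256 peaks at 14 genes 63 fell and 11 rose, with a median of -0.16 (40 to 45 fell with 1 library left out). The shares were 24.6% lower and 4.30% higher, against 8.29% and 5.92% of all peaks. Runx2 with 21 and Etv6 with 17, named above for their many lower peaks, hold most of the falls in this list. Runx3, which specifies the CD8 lineage, held 1124 and 1131 against 1829 and 1951 inside the gene (chr4:135158551-135160481; -0.74, SE 0.08, adjusted p = 3.62e-11). Ikzf3, the Ikaros-family factor Aiolos, rose at 1 site, with 199 and 172 against 90.3 and 89.3 (1.04, SE 0.22, adjusted p = 0.00027), and Fli1 rose at a strong one, with 1212 and 1190.1 against 963 and 917 (0.35, SE 0.08, adjusted p = 0.00107). The interferon-regulatory and interferon-response list was mixed, with 8 lower and 4 higher of 103 peaks, and this order turned (5 against 7) without the first OTC library. The shares in this list were 7.77% lower and 3.88% higher, against 8.29% and 5.92% of all peaks. Irf4, induced by receptor signalling, held 212 and 170.5 against 397 and 413 (-1.09, SE 0.19, adjusted p = 1.77e-05). Irf8 held 892 and 952 against 1423 and 1266 (-0.54, SE 0.09, adjusted p = 6.32e-06). Both fell, while Irf2, a repressor of interferon genes, rose with 331 and 304 against 196 and 177 (0.77, SE 0.15, adjusted p = 0.000105). Usp18, an interferon-induced brake on the interferon receptor, rose most clearly in the list, at 223 and 193 against 63.2 and 65.4 (1.68, SE 0.21, adjusted p = 2.92e-09).

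Genes of the progenitor state also had more lower than higher peaks. Their peaks had a median level of 186, against 93.9 over all peaks. Of 190 peaks at 16 genes such as Tcf7, Lef1 and Id3, 36 fell and 8 rose (18.9% and 4.21%, against 8.29% and 5.92% of all peaks), with a median of -0.15 (24 to 27 fell with 1 library left out). Ccr7, the lymph-node homing receptor, held 746 and 733 against 1173 and 1121 inside the gene (-0.63, SE 0.10, adjusted p = 3.86e-07). Satb1, a chromatin organiser, rose at its start with 598 and 530.2 against 308 and 432 (0.62, SE 0.13, adjusted p = 0.000223), and was not called without the first OTC library (adjusted p = 0.096). S1pr1, which lets T cells leave tissue, had a peak at 121 and 157 against 90.3 and 19.1 (1.70, SE 0.35, adjusted p = 0.000243) that rested on the second OTC library; without it adjusted p was 0.353.

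The exhaustion genes did not move 1 way. Of 156 peaks 15 fell and 11 rose, shares of 9.62% and 7.05% that lie near those of all peaks, and under quantile normalization 11 fell and 13 rose. Entpd1, the ectoenzyme CD39 of terminally exhausted cells, rose at an internal peak (chr19:40686623-40687883) with 402 and 363 in the Zfp219 libraries against 191 and 241 in the OTC libraries (log2 fold change 0.83, SE 0.14, limma adjusted p = 4.53e-06). Lag3, an inhibitory receptor, held 989 and 936 against 1515 and 1272 at a peak 1825 bases outside it (-0.53, SE 0.09, adjusted p = 1.91e-06). Nr4a2, a receptor-induced nuclear factor, held 2934 and 2937 against 3833 and 3705 (-0.36, SE 0.05, adjusted p = 3.83e-07), a difference that quantile normalization removed (adjusted p = 0.815). The list thus held clear changes in both directions. In the effector list 17 of 152 peaks fell and 11 rose (8 to 14 and 2 to 9 with 1 library left out). Gzmk, a granzyme of transitional cells, held 402 and 504 against 283 and 257 (0.74, SE 0.16, adjusted p = 0.000312), and Il2, the growth factor gene, 358 and 332 against 713 and 540.4 at a peak 47033 bases away (-0.85, SE 0.13, adjusted p = 5.92e-07). Fasl, a death ligand, held 1137 and 1080.0 against 1584 and 1511 (-0.48, SE 0.08, adjusted p = 3.61e-06). Zeb2, a factor of terminal effector cells, rose at a weak internal peak with 104 and 93.0 against 46.6 and 22.3 (1.58, SE 0.37, adjusted p = 0.00138), not called without the second OTC library (adjusted p = 0.121). Gzmk and Zeb2 thus rose and Il2 and Fasl fell. The effector list's shares, 11.2% lower and 7.24% higher, lie near the 8.29% and 5.92% of all peaks.

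Signalling genes are set against 8.29% lower and 5.92% higher over all peaks. Peaks of the cytokine, MAP kinase and survival lists are stronger, with median levels of 248, 157 and 173 against 93.9. All peaks were also split into 10 groups by mean level. In groups 6, 7 and 8 (median levels 118, 192 and 316) 8.19%, 11.96% and 10.9% fell, and 5.68%, 7.65% and 11.1% rose. Outside start windows 8.81%, 14.1% and 15.4% of the peaks in these groups fell. For receptors, STATs and SOCS proteins of the cytokine pathways 25 of 138 peaks fell (18.1%) and 6 rose (4.35%), with a median of -0.17 (18 to 25 fell and 1 to 6 rose with 1 library left out). Stat5a, which carries signals of IL-2 and IL-7, fell at its start, with 1579.5 and 1610.2 against 2306 and 2592 (-0.62, SE 0.08, adjusted p = 1.08e-09), and more inside the gene, with 264 and 289.6 against 642 and 612 (-1.18, SE 0.14, adjusted p = 9.96e-11). Both OTC libraries lay above both Zfp219 libraries at each site, as at nearly all peaks called lower. For MAP kinases and their phosphatases 21 of 129 peaks fell (16.3%) and 9 rose (6.98%; 10 to 16 and 2 to 7 with 1 library left out). Dusp1, an inducible phosphatase of p38 and JNK, held 102 and 123 against 278 and 311 at a peak 5762 bases outside the gene (-1.38, SE 0.19, adjusted p = 1.44e-08). The groups did not overlap there either, which holds for nearly all called peaks. For survival and death genes 19 of 126 fell (15.1%) and 6 rose (4.76%; 9 to 16 and 0 to 5 with 1 library left out). Bcl2, which blocks apoptosis, held 270.4 and 316 against 692 and 589.8 at an internal peak (-1.12, SE 0.14, adjusted p = 1.72e-09). Mcl1, its relative, held 622 and 586 against 1018 and 1008 at a peak 437 bases outside the gene (-0.75, SE 0.11, adjusted p = 6.99e-08).

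T cell receptor signalling genes had 15 higher and 12 lower of 232 peaks, 6.47% and 5.17%, near the 5.92% and 8.29% of all peaks. Prkcq gives 8 of the higher ones, and the order turned in 5 settings, such as the fit of the compared groups alone with 8 against 9. Cd5, a brake on the receptor, held 1560.1 and 1582 against 2119 and 2213 at a peak 23537 bases away (-0.46, SE 0.07, adjusted p = 2.59e-07). Cell cycle and senescence genes had 9 higher (10%) and 7 lower (7.78%) of 90 peaks, an order that turned in 3 settings. Mki67, a marker of proliferation, rose at its start with 882 and 920.1 against 630.3 and 685 (0.45, SE 0.10, adjusted p = 0.000894). Cdk6, a kinase of G1, rose at its start by 0.35 and fell at an internal peak by 0.57.

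The remaining lists had more lower than higher calls in shares closer to those of all peaks: 10 and 7 of 110 peaks for residency and homing, 9 and 4 of 96 for TGF-beta and Smad genes, 9 and 5 of 86 for glycolysis and hypoxia, 16 and 7 of 121 for chromatin regulators and 15 and 5 of 124 for migration and cytoskeleton. In that order 9.09%, 9.38%, 10.5%, 13.2% and 12.1% were lower, against 8.29% of all peaks. The higher shares were 6.36%, 4.17%, 5.81%, 5.79% and 4.03%, against 5.92%. With 1 library left out the lower peaks numbered 7 to 9, 4 to 8, 4 to 8, 11 to 14 and 6 to 12, and the higher ones 3 to 7, 1 to 5, 1 to 2, 3 to 4 and 1 to 5. Cd69, which retains T cells in tissue, held 167 and 166 against 334 and 354 at an internal peak (-1.04, SE 0.20, adjusted p = 4.4e-05). Itgae, the integrin chain CD103, rose at a peak that is also the start of Haspin, with 431 and 519.6 against 277 and 287 (0.75, SE 0.13, adjusted p = 1.62e-05). Tgfb1 held 1356 and 1209 against 1986 and 2087 at a peak 2021 bases outside the gene (-0.67, SE 0.08, adjusted p = 2.22e-10). Dnmt3a, a DNA methyltransferase, rose at its start by 0.64 and fell inside the gene by 0.73.

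**Figure D4:**
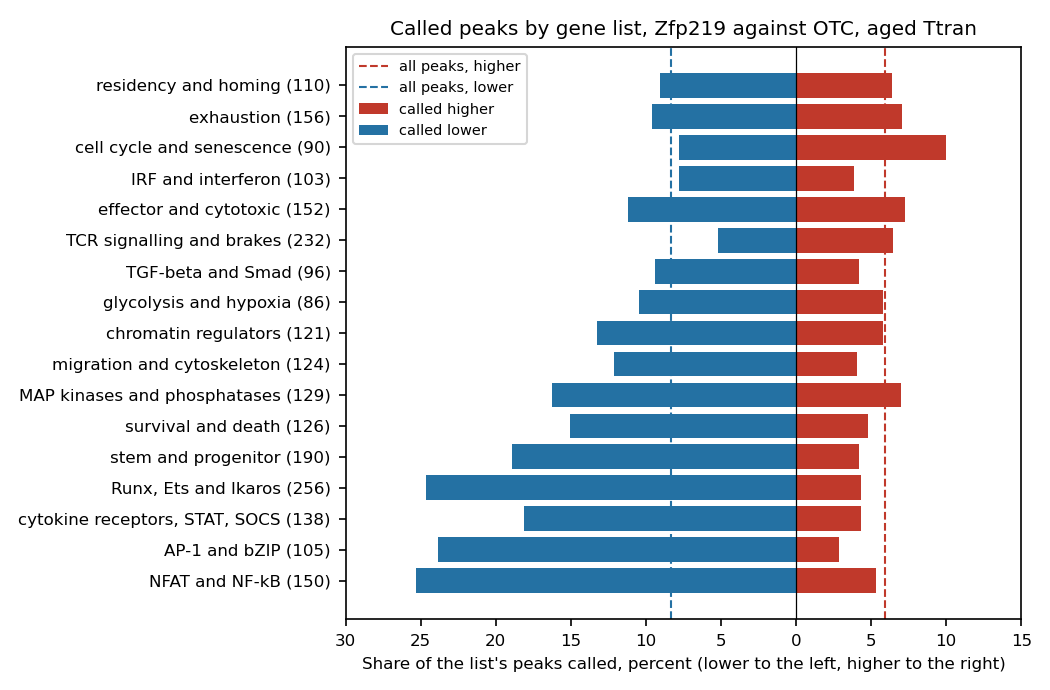
For each gene list (number of peaks in brackets), the bar to the left is the percent of its peaks called lower and the bar to the right the percent called higher with the Zfp219 guide in aged Ttran; dashed lines give 8.29% lower and 5.92% higher over all peaks. Lists are ordered by median difference, with NFAT and NF-kB, AP-1 and bZIP at the bottom, where 25.3% and 23.8% were lower. Peaks of every list have a higher median level (102 to 248) than all peaks (93.9). In groups 6, 7 and 8 of the split by mean level (median levels 118, 192 and 316) 8.19%, 11.96% and 10.9% of peaks were lower.

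The largest single changes were at weak sites. Among called peaks with a mean of at least 50 normalized reads over the series and no overlap between the groups, the 10 largest rises were 1.85 to 2.45. The first was inside Smg9, a regulator of nonsense-mediated decay, with 64.3 and 84.0 in the Zfp219 libraries against 7.52 and 20.7 in the OTC libraries (log2 fold change 2.45, SE 0.50, limma adjusted p = 0.000147). It rests on 5 and 13 OTC reads. Pltp, the phospholipid transfer protein, had the smallest adjusted p of the 10, with 197 and 215 against 57.2 and 52.6 (1.89, SE 0.28, adjusted p = 2.54e-07). Abcg1, Ms4a4d, Chd7, Eps8l1, Cntrob, Prkcq, Tspan3 and Cers4 were the others; 2 of the 10, Cntrob and Prkcq, were not called without the second OTC library.

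The 10 largest falls were 1.95 to 2.36 in size and lay at Trp73, Stmn4, Uhmk1, Aopep, Fam178b, Kcna4, Msi2, Tdpoz2, Idi2 and Cdc42ep3. Inside Trp73, a relative of p53, the level was 52.0 and 66.1 in the Zfp219 libraries against 314 and 295 in the OTC libraries (log2 fold change -2.36, SE 0.41, limma adjusted p = 8.17e-06), 0.194 of the OTC mean. At Cdc42ep3, an effector of Cdc42, it was 74.5 and 60.4 against 292 and 236 (-1.95, SE 0.27, adjusted p = 3.5e-08). Msi2, an RNA-binding protein of stem cells, held 33.7 and 36.7 against 125 and 169 (-2.02, SE 0.35, adjusted p = 9.86e-06). All 10 falls kept their call whichever of the 4 libraries was left out.

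Whether peaks of other states moved was read from peaks defined without any of the 4 libraries. In young OTC cells 3751 peaks were more open in Tprog than Tterm (adjusted p under 0.05 and at least 2-fold). Of all peaks, which are stronger than these sets, 8.29% fell and 5.92% rose with the Zfp219 guide. With the Zfp219 guide in aged Ttran 468 of them fell (12.5%) and 88 rose (2.35%), with a median of -0.27. Of 2187 more open in Tterm 172 fell (7.86%) and 76 rose (3.48%), with a median of -0.06. In aged Dusp5 cells the same rule gave 2226 Tprog peaks, of which 159 fell and 110 rose (7.14% and 4.94%, median -0.09), and 3467 Tterm peaks, of which 427 fell and 109 rose (12.3% and 3.14%, median -0.24). The share of falls was above that of all peaks for the Tprog set of young OTC cells and the Tterm set of aged Dusp5 cells. For the other 2 sets it was slightly below. But the sets are weak, with median levels of 50.8 to 59.8 against 93.9 over all peaks. In groups 4 and 5 of the split by mean level (median levels 50.8 and 76.2) 3.45% and 5.77% of peaks fell. Each set's share of falls was above both of these.

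The Dusp5 guide, against a phosphatase of ERK, gives a second perturbation in aged Ttran, with 2 libraries of 11783429 and 14913637 reads. Against these, the Zfp219 libraries had 982 peaks higher (1.82%) and 1815 lower (3.37%), together 5.19%. Without 1 of the 4 libraries between 860 and 1405 were called. Dusp5 against OTC, which shares the OTC libraries with the main comparison, had 730 higher (1.36%) and 1317 lower (2.44%), together 3.8%. Since either comparison shares libraries with the main one, levels are given side by side. At the Jun peak the Dusp5 libraries held 499 and 513, between the 660.4 and 458 of OTC and above the 236 and 245 of Zfp219 (Zfp219 against Dusp5 -1.07, SE 0.15, adjusted p = 4.78e-07). Bcl2 held 676 and 599.5 (-1.12, SE 0.14, adjusted p = 1.88e-08), Cd69 344 and 356 (-1.07, SE 0.20, adjusted p = 0.000136), Msi2 147 and 141 (-2.00, SE 0.35, adjusted p = 6.06e-05) and Slamf6 518 and 503 (-0.70, SE 0.15, adjusted p = 0.00133). At these 5 peaks the Zfp219 libraries stood below both other groups.

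Elsewhere the Dusp5 libraries lay with the Zfp219 libraries. At the Cmip peak (chr8:117287678-117289638) they held 1597 and 1589, against 1542 and 1520 for Zfp219 and 2413 and 2473 for OTC (Zfp219 against Dusp5 -0.06, SE 0.07, adjusted p = 0.74). At the internal Hdac4 peak, in a histone deacetylase gene, they held 290.2 and 307, against 324 and 275 for Zfp219 and 581 and 577 for OTC (0.00, SE 0.16, adjusted p = 0.998). Nr4a2 held 2949 and 2959 (-0.01, SE 0.05, adjusted p = 0.958), and at Eps8l1 the Dusp5 levels were 99.0 and 87.9, against 72.4 and 98.7 and against 10.5 and 33.5 (-0.14, SE 0.34, adjusted p = 0.88). A difference that misses the threshold does not show that the 2 guides act alike. For such peaks the OTC libraries are the ones apart, and what sets them apart was not tested. Runx2 and Usp18 lay between, with Dusp5 levels of 1866 and 1662 at Runx2 and 132 and 134 at Usp18.

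The peaks called in aged Ttran were then followed in the other sorted states, which have their own Zfp219 and OTC libraries; whether the pools drew on the same mice was not recorded. Of the 4468 lower peaks 4039 (90.4%) were below OTC in aged Tterm and 4035 (90.3%) in aged Ttad, the cells with neither Slamf6 nor Tim-3, where 50.6% and 49.7% of all peaks were. In aged Tprog it was 3445 (77.1%, against 51.3% of all peaks). Of the 3188 higher peaks 2631 (82.5%) were above OTC in Tterm, 2798 (87.8%) in Ttad and 2195 (68.9%) in Tprog, against 49.4%, 50.3% and 48.7% of all peaks. The same sign in all 3 states was found for 2987 lower (66.9%) and 1724 higher peaks (54.1%). Sizes were smaller: the lower peaks had a median of -0.66 in Ttran and -0.29 in Tterm, -0.35 in Ttad and -0.21 in Tprog. Since the peaks were picked for their size in Ttran, that ranking of sizes is partly set by the choice.

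Calls overlapped in part. Called in either direction were 3.57% of all peaks in Tterm, 8.23% in Ttad and 2.56% in Tprog. Tterm had 1353 lower peaks (2.51%), of which 1081 were also lower in Ttran; these are 24.2% of the Ttran list and 79.9% of the Tterm list. Ttad had 2459 lower peaks (4.56%) and shared 1494, or 33.4% and 60.8% of the lists, and Tprog 780 (1.45%) with 483 shared, or 10.8% and 61.9%. Among higher peaks 199 were shared with Tterm, 554 with Ttad and 134 with Tprog, or 35.0%, 28.1% and 22.4% of the higher lists of those states, which hold 1.06%, 3.66% and 1.11% of all peaks. The difference itself was tested: in 618 peaks (1.15%) the Ttran difference departed from the mean of the other 3 aged states, 204 upward (0.379%) and 414 downward (0.769%). That split rested on the OTC Ttran libraries; without the first it was 377 upward and 288 downward and without the second 338 and 258. Without the first Zfp219 Ttran library 167 peaks were called and without the second 236.

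In Ttran of young hosts, with 3 libraries a group, 890 peaks were higher (1.65%) and 2277 lower (4.23%), together 5.88%, with the Zfp219 guide. Of the lower peaks of aged hosts 3399 (76.1%) were below OTC there, against 51.2% of all peaks, and of the higher ones 2265 (71.0%, against 48.8%) above it. The median differences were -0.17 and 0.11. Called in both hosts were 997 lower peaks (22.3% of the aged and 43.8% of the young list) and 206 higher ones (6.46% and 23.1%). The test of the difference between hosts called 1975 peaks (3.67%), 768 upward (1.43%) and 1207 downward (2.24%) in aged hosts. The fit of the compared groups alone called 630, and without the first Zfp219 library of aged hosts 905 and without the second 970. At the Jun peak the difference was -1.19 in aged and -0.06 in young Ttran (between hosts -1.13, SE 0.20, adjusted p = 5.78e-05). At Batf3 it was -1.06 and -0.05 (-1.01, SE 0.19, adjusted p = 0.000224). The Jun and Batf3 falls were thus larger in aged hosts, while at Stat5a (chr11:100882775-100884202) the values were -1.18 and -0.89, and the hosts did not pass the test of a difference (-0.29, SE 0.18, adjusted p = 0.416).

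**Figure D5:**
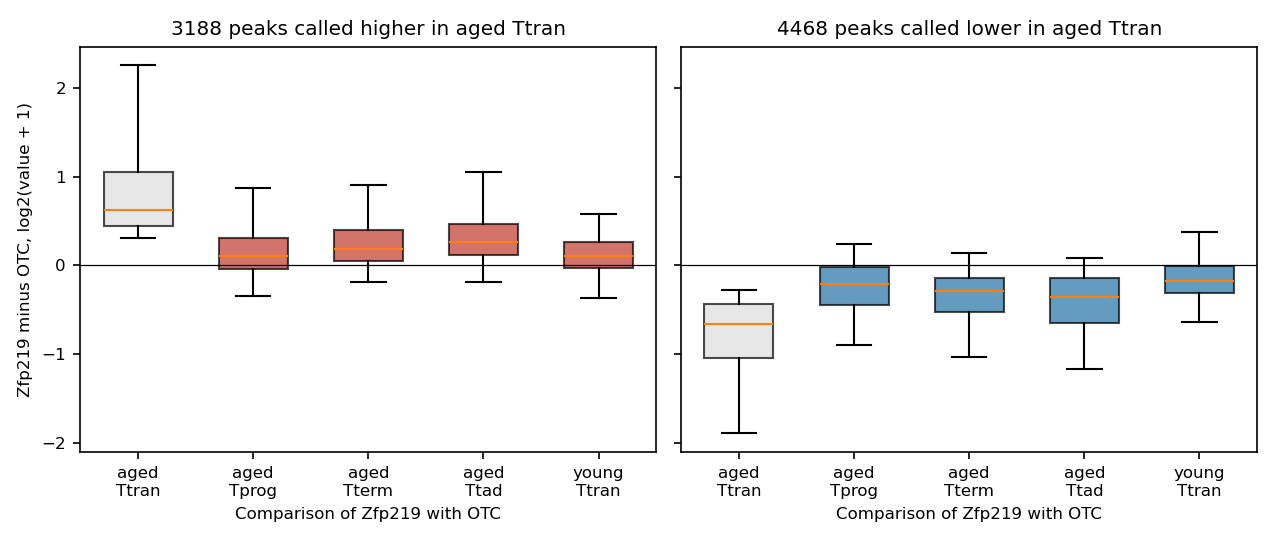
Differences between Zfp219 and OTC libraries on the log2(value + 1) scale, for the 3188 peaks called higher (left) and 4468 called lower (right) in aged Ttran (grey box, fixed by the choice) and for the same peaks in 3 other aged states and in young Ttran. Boxes span the middle 50% with the median as a line, and whiskers the 5th to 95th percentiles; the lower peaks have medians of -0.29 in Tterm, -0.35 in Ttad, -0.21 in Tprog and -0.17 in young Ttran.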

How the data were processed

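ATAC-seq libraries were made with Tn5 after digitonin permeabilisation of 5000 to 50000 sorted cells, per the series' design text. The submitters' processing notes name mm10, Bowtie2 2.2.9, Picard 2.8.0, MACS2 2.1.1, SAMtools 1.3.1 and DESeq2 1.28.1, with no roles. The deposited signal is a table of 53868 peaks by 48 libraries, whose values are reads divided by a size factor; all values came out as whole reads within 0.01. Log2(value + 1) was tested with limma 3.58.1 (R 4.3.3) in 1 fit of all 48 libraries with 21 group means and trended variance, with Benjamini-Hochberg adjustment over all peaks. The fit was tested on simulated data. Peaks were placed by RefSeq gene bodies (GRCm38.p6) and, for starts and printed sequence, RefSeq windows.

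Named were all Zfp219 peaks, the strongest peak of each sort marker, the 10 largest called rises and falls (mean of at least 50, groups apart), the strongest called peak of the 6 genes with most higher or lower peaks, the 2 risen and 2 fallen peaks of smallest adjusted p per list and the 3 largest differences between states and hosts; weak ones are not all described. The 17 gene lists and 8 marker lists, and the comparison itself, were chosen with earlier results of these data known. Alternatives were edgeR 4.0.16 and DESeq2 1.42.0 on 47 libraries of recovered reads, other normalizations, a pseudocount of 8, filters, weights, thinning, a replicate block and each library left out. A young Zfp219 Tprog library was left out of the count tests. Some of the genes that this rule names are not reported here.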

Additional observations from a re-analysis of the deposited data

Results flagged for a closer look

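In 618 peaks the Zfp219 difference in aged Ttran departed, by a limma contrast over the states, from the mean of the differences in aged Tprog, Tterm and Ttad. The largest upward departures among peaks with a mean of at least 50 were 1.90 inside Camsap3, 1.78 inside Gsap and 1.76 at the Eps8l1 start. The largest downward ones were -1.72 near Tnfrsf19, -1.58 near Stmn4 and -1.57 inside Slc24a1. Each of these 6 lost its call in at least 1 fit without a library: Camsap3 and Gsap reached adjusted p = 0.252 and 0.156, Eps8l1 0.292, Tnfrsf19 0.469, Stmn4 0.364 and Slc24a1 0.228.

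In 1975 peaks the Zfp219 difference in Ttran departed between aged and young hosts by the same kind of test. The difference was greater in aged hosts by 2.83 inside Smg9, 2.42 near Ms4a4d and 2.35 near Abcg1. It was lower by -3.08 inside Smad4, -2.68 inside Dcaf5 and -2.65 near Actn1. At these last 3 the guide's difference was -1.41, -1.80 and -1.69 in aged hosts and 1.67, 0.89 and 0.96 in young hosts, so the sign turned. Smg9 and Abcg1 were not called without the first aged OTC library (adjusted p = 0.0731 and 0.115).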

How the results depend on the processing

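With 2 pools a group, the p-values rest on a spread between pools estimated over all 48 libraries, and only in small part on the compared pools. The aged Ttran comparison of Zfp219 and OTC had 5423 to 8027 calls under the settings that used all libraries of the compared groups, against 7656; leaving out each library gave 4156 to 5462. The share of calls that were higher was 41.6%, 48.9% under quantile normalization and 34.1% with edgeR. Of the calls, 6935 were shared in direction with edgeR, 7205 with DESeq2 and 6423 with quantile normalization. The difference between states (618) was 1025 with DESeq2 and 252 under quantile normalization, and 167 to 665 with a library left out. The difference between hosts (1975) was 630 in the fit of the compared groups alone and 1038 with library weights, and 905 to 2117 with a library left out. Zfp219 against Dusp5 (2797) gave 4480 with DESeq2, 4252 for the compared groups alone and 4852 with weights, and 860 to 1405 with a library left out. Causes were not tested, beyond the smaller number of libraries in the last kind of fit. Of 1983 values for the 130 named results under an alternative, 121 lost the call and none turned direction; 48 results lost it with a library left out and 16 in another setting.

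No pairing by replicate number was seen: same-numbered Zfp219 and OTC deviations correlated at 0.0046 and Zfp219 and Dusp5 at 0.0146. Many of the peaks are weak and vary with few reads, so these values cannot exclude a pairing. With the replicate block the counts were 7604, 607, 1977 and 2769 in the order above.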

Other observations

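Peaks over transfer RNA genes moved upward. This list was chosen after the values were seen, so its count is a description. Of 152 peaks that overlapped 1 or more of 430 transfer RNA genes, 35 were higher with the Zfp219 guide in aged Ttran (23%, against 5.92% of all peaks), none was lower, and the median difference was 0.23. In aged Ttad 14 were higher (9.21%, against 3.66% of all peaks) and in young Ttran 17 (11.2%, against 1.65%). In aged Tprog and aged Tterm 3 were higher in each (1.97%), near the 1.11% and 1.06% of all peaks. None was lower in these 4 comparisons. In Dusp5 against OTC aged Ttran cells 17 were higher (11.2%, against 1.36% of all peaks), and these share the OTC libraries. In Zfp219 against Dusp5 aged Ttran cells 1 was higher (0.658%, against 1.82% of all peaks), with a median difference of 0.03. The rise in aged Ttran was thus seen against the OTC libraries and hardly against the Dusp5 libraries. What sets the OTC libraries apart was not tested. The transfer RNA peaks had a median level of 400, against 93.9 over all peaks. Transfer RNA genes have near-identical copies, so reads of 1 copy can be placed at another.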
